A study of Mus musculus with 9 samples.

Results

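This comparison sets SRF-KO macrophages given lipopolysaccharide (LPS) against untreated Control macrophages over the autosomal genes. It uses 6 of the 9 RNA-seq libraries of the series, 3 in each group, and 11144 of the 21083 autosomal genes in the files had enough reads to be tested. Every cell was a bone marrow-derived macrophage of the C57BL/6 mouse strain, grown from marrow for 7 days in dishes without a culture coating. The untreated group carried the wild-type genotype, is called Control in the sample titles and received no LPS. The other group was SRF-KO, lacking serum response factor by its label, and received LPS for 6 h. The third group of the series, Control cells with LPS for 6 h (Control LPS, 3 libraries), is used here to show where each gene stood in LPS-treated cells with SRF. How the Srf gene was deleted, in which cells and with which promoter, the LPS dose, and how many mice gave the cells are not stated in the labels used here. The groups compared differ in genotype and in treatment at once. The 9 libraries include no SRF-KO cells without LPS. Genotype and LPS therefore cannot be told apart in any difference between SRF-KO LPS and untreated below.

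SRF is a transcription factor that binds a short DNA element called the CArG box. With its actin-sensing partners, the myocardin-related transcription factors, it is known for driving genes of the actin cytoskeleton, and with ternary complex factors for driving immediate-early genes. LPS, a part of the outer wall of Gram-negative bacteria, is sensed by Toll-like receptor 4 on macrophages. One branch below the receptor activates NF-kB and turns on inflammatory cytokines. Another makes the cells secrete interferon-beta, which acts back on them through its receptor to induce interferon-stimulated genes. LPS is also known to slow the division of macrophages that are growing in culture.

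Total read counts lay between 15867737 and 17606538 in the untreated libraries and between 16987011 and 24912173 in the SRF-KO LPS libraries. CPM here means reads relative to the library's total after scaling for composition by edgeR's TMM factors. Srf itself, at chr17:46548329-46556175 (GRCm38), had 810, 975 and 884 reads in the untreated libraries and 34, 24 and 12 in SRF-KO LPS. The groups did not overlap, and the level was 41.6-fold lower (log2 fold change -5.38 ± 0.13 SE). Of 4 Y-linked genes (Uty, Ddx3y, Kdm5d and Eif2s3y), each had 338 to 944 reads in every untreated library and 0 to 2 in every SRF-KO LPS library, so sex, genotype and LPS cannot be told apart either. Replicates varied little, with a biological coefficient of variation of 3.46% over all genes, yet each pair differed by more than sampling noise (chi-square per degree of freedom 1.75 to 3.95). Whether replicates came from separate mice or dishes is not labelled. P-values thus reflect the spread among the 3 libraries of a group, and that spread may be technical. Macrophage genes moved both ways, and several were abundant in both groups. Lyz2 stood at 8105, 8390 and 8281 CPM untreated and at 12333, 12384 and 12170 CPM in SRF-KO LPS, and Itgam and Adgre1 had means of 1138 and 2191 CPM untreated and 1376 and 1701 CPM in SRF-KO LPS. Others fell: mean levels of Cd68, Fcgr1 and Mertk were 2016, 684 and 47.1 CPM untreated and 553, 84.2 and 4.38 CPM in SRF-KO LPS. Of 29 macrophage identity genes tested, 18 were lower and 11 higher. In such bulk samples, fewer cells of a type and less RNA per cell cannot be told apart.

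Relative to untreated Control cells, 8874 of 11144 genes (79.6%) differed in SRF-KO LPS, 4400 (39.5%) higher and 4474 (40.1%) lower, by edgeR's quasi-likelihood test at a Benjamini-Hochberg adjusted p below 0.05. The groups did not overlap for 8879 genes (79.7%). Passing the test is therefore the common state here, and size says more. The shares of all genes in this paragraph are those to set beside the counts of each list below. A level at least 4-fold away is called far: 751 genes (6.74%) lay far above and 494 (4.43%) far below the untreated level. Conversely, 2345 genes (21%) lay at the untreated level, meaning that the 95% interval of the fold change stayed wholly within 0.32 of 0 on the log2 scale. Of these, 860 (7.72% of all genes tested) also passed the test, with differences too small to leave that band, and 785 genes (7.04%) neither passed nor were placed at the level. The last class is genes on the other side: 375 (3.37%) were above untreated in Control LPS but below it in SRF-KO LPS, and 406 (3.64%) the reverse, each passing and at least 0.32 away on the log2 scale in both. The contrasts behind this class share the untreated libraries, so it is a description and not a test.

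The balance of rises and falls rests on the scaling. With library totals alone in place of TMM, 3330 genes were higher and 5837 lower, so that rises made up 36.3% of the calls against 49.6% with TMM. The median log2 difference of all genes moved from -0.01 to -0.20. Folds far from 1 change little by such a shift, whereas small differences can change sign. The TMM factors differed more between untreated (1.18 to 1.19) and Control LPS (0.810 to 0.814) than between untreated and SRF-KO LPS (1.04). Levels and medians of Control LPS set against untreated thus rest still more on the scaling.

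**Figure D1:**
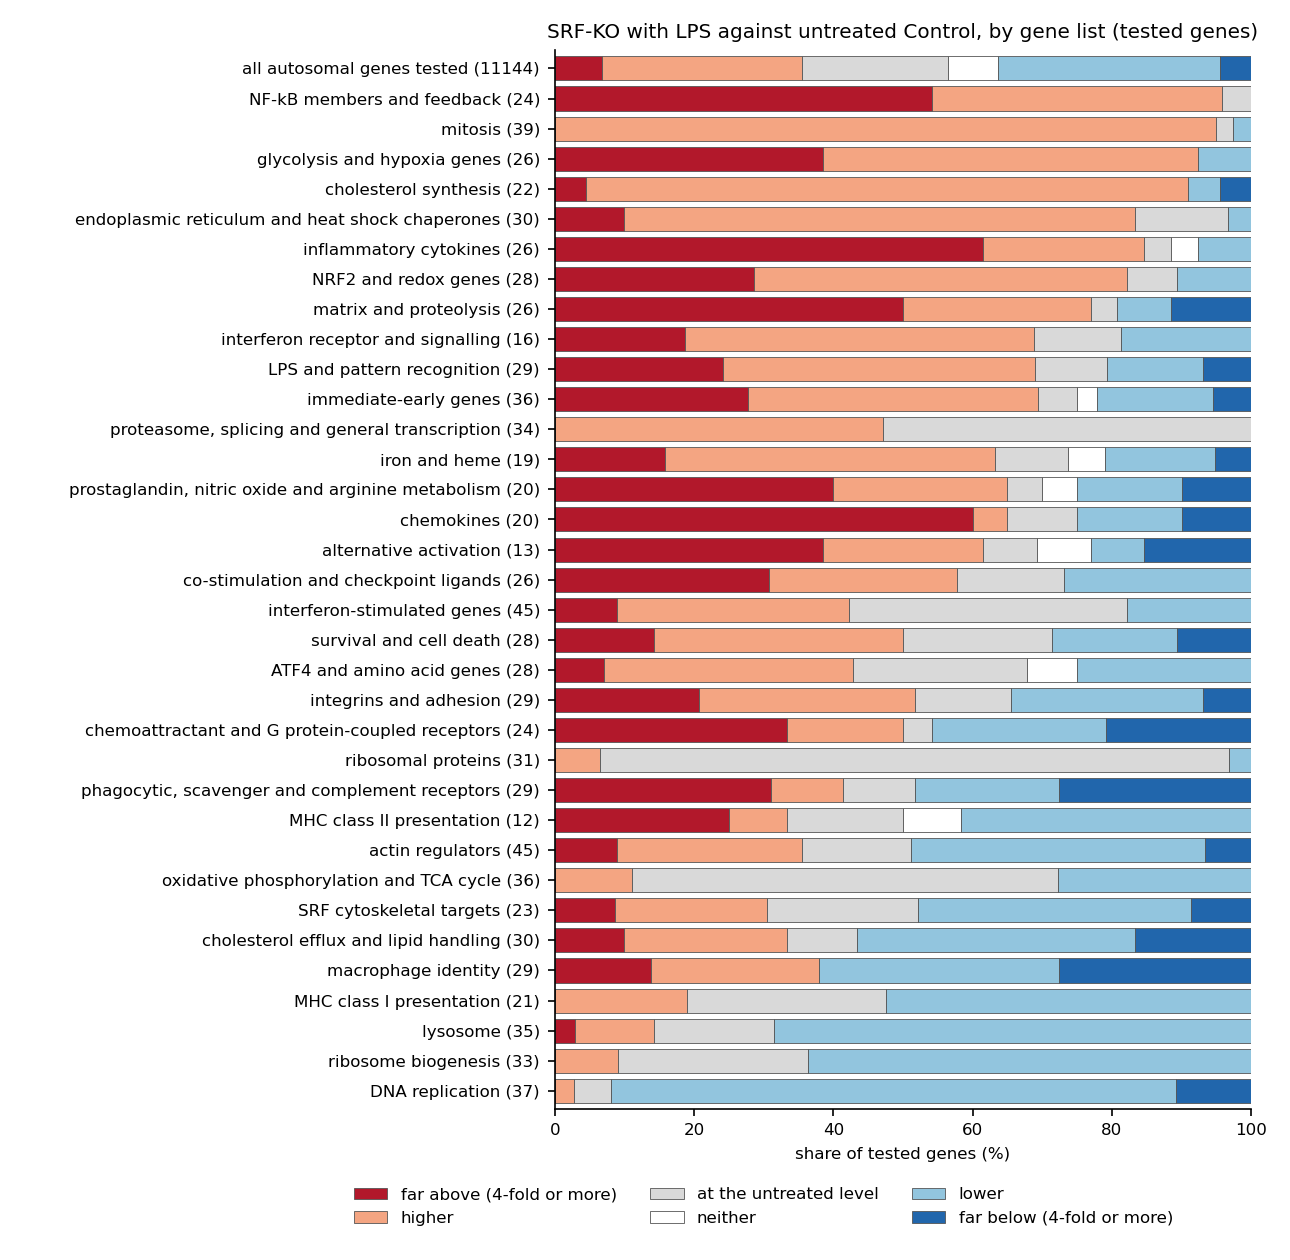
Share of tested genes (%, horizontal axis) in each class, for all autosomal genes tested (top bar) and for 34 gene lists, with the number of tested genes in brackets. Red stands for far above, orange for higher, grey for at the untreated level (also where the gene passed the test), white for neither, light blue for lower and dark blue for far below. Inflammatory cytokines and chemokines have the widest red bars, ribosomal proteins the widest grey bar (28 of 31 genes at the untreated level), and DNA replication is mostly blue, with 30 of 37 genes lower and 4 more far below.

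Inflammatory cytokine genes formed the group farthest above the untreated level. Of 26 tested, 23 were higher, 2 lower and 16 far above, with a median log2 fold change of 4.44 against -0.01 for all genes. In Control LPS the median of the same genes was 3.93. Il1b, which encodes the fever-inducing cytokine interleukin-1 beta, stood at 2.07, 1.68 and 1.92 CPM untreated and at 7158, 7306 and 7254 CPM in SRF-KO LPS. That is a 3832-fold rise (log2 11.90 ± 0.07 SE, adjusted p = 1.58e-49), and Control LPS reached 3377 ± 78.2 CPM (SD, n = 3). Il1a rose from 0.386, 1.10 and 0.480 CPM to 2950, 3251 and 2931 CPM. For Il6, a cytokine of the acute-phase response, a single read in 1 untreated library faced 435, 480 and 433 CPM in SRF-KO LPS. The ratio was 27291 with a 95% counting interval of 4898 to 1077960, so only its order of size is known. Tnf was the mildest of the classical set. It went from 50.8, 49.9 and 55.4 CPM to 502, 503 and 515 CPM, a 9.75-fold rise beside 484 ± 8.89 CPM in Control LPS. Il1rn, the secreted antagonist of interleukin-1, rose 35.6-fold. Ifnb1, which encodes interferon-beta, was near the limit of detection at 6 h, with 0.145, 0.192 and 0.107 CPM untreated and 0.270, 0.232 and 0.227 CPM in SRF-KO LPS, and did not pass (95% interval 0.699- to 3.82-fold).

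Genes with no read in any untreated library were ranked first among the rises, in order of symbol, and 8 such genes are given here. A fitted fold has no size for them, so the folds given are lower bounds set against 3 reads over the untreated group. These bounds are not a ranking by size, since other genes, such as Cxcl3 (6851-fold), had larger fitted folds. The 8 genes reached the level required for naming through SRF-KO LPS alone. Ereg and Areg, which encode the epidermal growth factor receptor ligands epiregulin and amphiregulin, lie next to each other on chromosome 5 (chr5:91074622-91093646 and chr5:91139599-91148432). Ereg stood at 59.8, 59.3 and 56.0 CPM in SRF-KO LPS, at least 1178-fold higher, and Areg at 18.0, 16.1 and 18.4 CPM, at least 349-fold higher. In Control LPS these genes were nearly silent, at 0.255 ± 0.092 CPM for Ereg and 0.158 ± 0.175 CPM for Areg. Csf3, the granulocyte growth factor G-CSF, reached 45.6, 47.6 and 43.8 CPM (at least 923-fold). The glutamate transporter gene Slc1a2 was at least 966-fold higher, Plet1 at least 625-fold, the imprinted gene Peg10 at least 596-fold, Il1f6 (interleukin-36 alpha) at least 559-fold and the hyaluronan synthase gene Has1 at least 402-fold. All 8 were above every Control LPS library as well as above the untreated ones. Inhba, which encodes the subunit of activin A, showed a like pattern: 0.048, 0.192 and 0 CPM untreated, 203, 218 and 213 CPM in SRF-KO LPS, and 6.82 ± 0.939 CPM in Control LPS.

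Chemokines lay on both sides of the untreated level. Of 20 tested, 13 were higher and 12 of them far above, while 5 were lower, 2 of these far below, with a median log2 fold change of 3.29. The neutrophil attractants of the CXC family led the rises. Cxcl3 (chr5:90786103-90789600) went from 0.386, 0.383 and 0.427 CPM to 2653, 2870 and 2651 CPM, 6851-fold higher (log2 12.74 ± 0.09 SE, adjusted p = 1.19e-47), whereas Control LPS held 174 ± 9.03 CPM. Its neighbours Cxcl1 and Cxcl2 were 2185-fold and 352-fold higher. Ccl22, a ligand of the T cell receptor CCR4, was 205-fold higher. Chemokines known as interferon targets rose less than in Control LPS. Cxcl10 went from 41.5, 46.5 and 50.9 CPM to 470, 501 and 455 CPM (10.3-fold) beside 3205 ± 97.2 CPM in Control LPS, and Ccl5 was 7.61-fold higher beside 4959 ± 248 CPM. Ccl7, Ccl12 and Ccl8, attractants of monocytes and other leukocytes, fell below untreated. The level of Ccl7 was 42.8, 48.6 and 52.5 CPM untreated and 17.2, 17.4 and 13.6 CPM in SRF-KO LPS, 2.95-fold lower, with 512 ± 13.7 CPM in Control LPS. Ccl12 was 5.00-fold lower, and Ccl8 58.7-fold lower (7.86, 7.09 and 9.23 CPM against 0.045, 0.271 and 0.057 CPM). These 3 neighbouring genes on chromosome 11 are near relatives, so reads could be assigned to the wrong one.

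NF-kB members and feedback genes were the most uniform of the rising lists: 23 of 24 were higher, none was lower and 13 were far above, with a median of 2.07 (2.98 in Control LPS). Ptgs2, the inducible cyclooxygenase that makes prostaglandin precursors, rose from 1.01, 0.958 and 0.801 CPM to 1782, 1955 and 1764 CPM, 1976-fold. Tnfaip3, an inhibitor of NF-kB signalling, rose 14.5-fold. The exception was Tnip3, a partner of Tnfaip3. Its untreated levels of 117, 117 and 108 CPM and its SRF-KO LPS levels of 109, 119 and 111 CPM overlapped, and the log2 fold change was -0.01 with a 95% interval of -0.10 to 0.07, while Control LPS held 716 ± 5.55 CPM.

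Genes of LPS and pattern recognition were mostly higher, and 24.1% lay far above, where 6.74% of all genes did. Among 29 tested 21 were higher, 7 of them far above, and 7 were lower, 2 of them far below (median 0.68, 1.89 in Control LPS). Several effector genes had large folds. Nos2, the inducible nitric oxide synthase, went from 1.30, 1.39 and 1.23 CPM to 1088, 1092 and 1153 CPM, 848-fold. Acod1, which makes the metabolite itaconate, rose 157-fold, and the bacterial lipopeptide receptor gene Tlr2 rose 16-fold. Tlr9, a receptor for microbial DNA, stood out in the other direction, at 65.4, 70.1 and 78.5 CPM untreated and 3.56, 2.44 and 2.78 CPM in SRF-KO LPS. It was 24.5-fold lower, with 66.1 ± 4.33 CPM in Control LPS. Of 20 genes of prostaglandin, nitric oxide and arginine metabolism 13 were higher, 5 lower and 8 far above. Ptges, the inducible prostaglandin E synthase, rose 105-fold and the arginine-degrading enzyme gene Arg1 66.1-fold (from 2.75, 2.59 and 3.10 to 190, 192 and 173 CPM), while Hpgds, a prostaglandin D synthase, was 8.09-fold lower.

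Surface and secreted molecules followed. Among 24 chemoattractant and G protein-coupled receptors 12 were higher and 11 lower, with 8 far above and 5 far below, so the list was drawn apart rather than shifted. The formyl peptide receptor gene Fpr1 rose 343-fold (0.482, 0.718 and 0.587 to 205, 205 and 203 CPM) and the niacin receptor gene Hcar2 181-fold. P2ry12, a receptor for adenosine diphosphate, was 46.0-fold lower. Of 26 co-stimulation and checkpoint genes 17 were higher, 7 lower and 8 far above. Cd40 rose 12.9-fold, Cd274 (PD-L1) 12.5-fold and Cd80 13.3-fold. Of 26 matrix and proteolysis genes 20 were higher, 5 lower, 13 far above and 3 far below (median 2.09, 1.88 in Control LPS). Thbs1, which encodes the matrix protein thrombospondin-1, rose from 3.71, 4.02 and 4.06 CPM to 1903, 1828 and 1818 CPM, 471-fold. Serpinb2, an inhibitor of the plasminogen activator urokinase, rose 2798-fold, the collagenase gene Mmp13 213-fold and the proteoglycan gene Vcan 305-fold. Plau, which encodes urokinase itself, was 55.8-fold lower (518, 528 and 546 CPM against 9.15, 10.5 and 8.62 CPM). Control LPS was also low for Plau, at 8.30 ± 0.802 CPM.

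**Figure D2:**
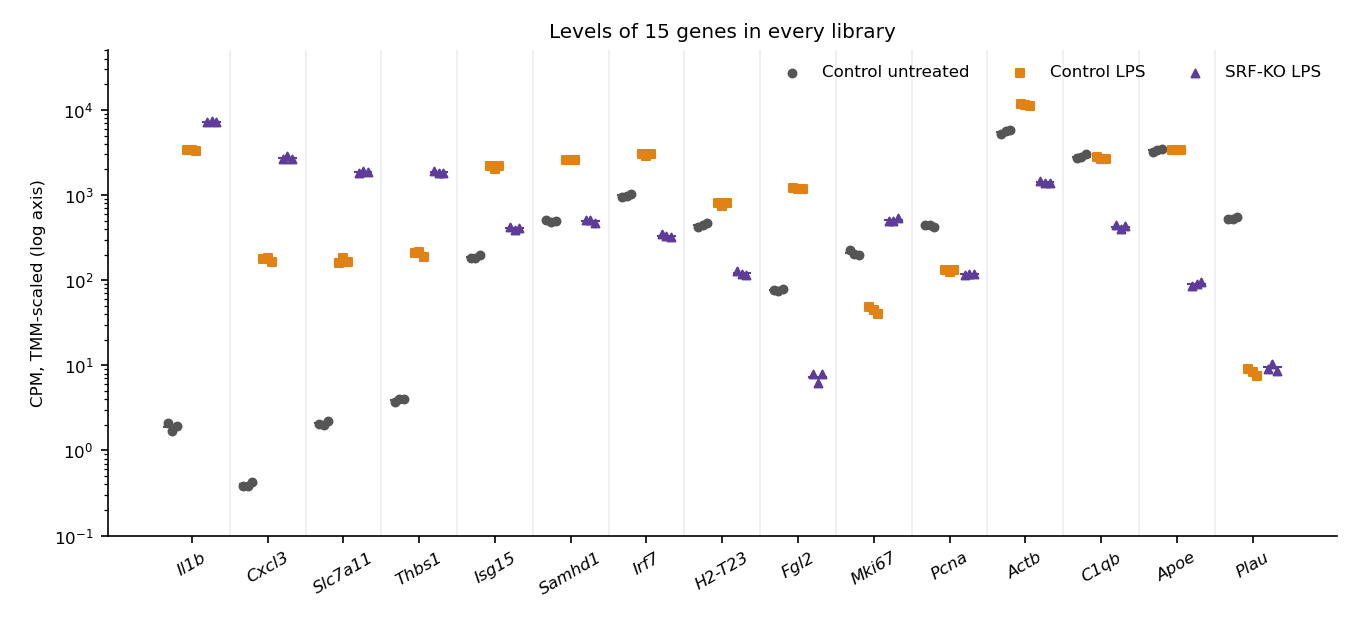
TMM-scaled CPM (log axis) of 15 genes in each of the 9 libraries. Symbols are single libraries and short lines are group means, with grey circles for untreated Control, orange squares for Control LPS and purple triangles for SRF-KO LPS. Levels are to be read within a gene. Samhd1 lies at about the untreated level in SRF-KO LPS, Irf7, H2-T23, Fgl2 and Actb lie below untreated where Control LPS lies above, and Mki67 shows the reverse.

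Genes of sugar metabolism rose in both LPS groups. Of 26 glycolysis and hypoxia genes 24 were higher, 2 lower and 10 far above, with a median of 1.48 (1.27 in Control LPS). The glucose transporter gene Slc2a1 went from 75.0, 81.7 and 83.4 CPM to 721, 690 and 714 CPM, 8.85-fold, beside 521 ± 13.9 CPM in Control LPS. Hif1a, the hypoxia-inducible transcription factor, rose 6.95-fold, whereas enzymes at the end of the pathway moved less (Ldha 2.12-fold, Pkm 1.32-fold). Oxidative phosphorylation and the citric acid cycle stayed close to the untreated level, with 22 of 36 genes at it, none 2-fold away, 14 higher and 13 lower. With library totals alone only 3 of these were higher and 23 lower.

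NRF2 and redox genes, a set that protects against oxidants, lay above untreated for 23 of 28 members and below for 4, with 8 far above and a median of 1.28 (0.43 in Control LPS). Slc7a11, which imports cystine for glutathione synthesis, had the largest fold: 2.03, 2.01 and 2.189 CPM untreated and 1811, 1913 and 1871 CPM in SRF-KO LPS, 900-fold, with 168 ± 10.9 CPM in Control LPS. Nqo1, a quinone reductase and textbook NRF2 target, rose from 1.98, 1.96 and 1.60 CPM to 25.6, 26.1 and 30.1 CPM (14.6-fold), and Control LPS held 1.33 ± 0.244 CPM. The glutathione transferase gene Gsta3 was 23.1-fold above untreated in SRF-KO LPS and below it in Control LPS (0.190 ± 0.143 CPM against 0.917, 0.766 and 0.961 CPM). Thioredoxin reductase (Txnrd1) rose 6.00-fold, glutathione reductase (Gsr) 9.42-fold and heme oxygenase (Hmox1) 4.64-fold. TGACNNNGC, the core of the antioxidant response element that NRF2 binds, was looked for in promoter windows from 250 bases before to 50 after the gene's start. It was found on either strand in 10 of 24 listed genes (41.7%) and in 17.3% of all genes with a window. The share was not particular to this list. Lysosome genes, mostly lower here, held it as often (10 of 24, 41.7%), as did chemoattractant and G protein-coupled receptor genes (8 of 19, 42.1%).

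Cholesterol synthesis was on the other side. Of 22 genes 20 lay above untreated and 2 below, and the median was 1.42 against -0.71 in Control LPS. For 14 genes Control LPS was below untreated and SRF-KO LPS above, where 3.64% of all genes were. Sqle, which encodes squalene epoxidase, stood at 53.0, 52.7 and 50.3 CPM untreated, at 130, 127 and 120 CPM in SRF-KO LPS and at 11.3 ± 0.836 CPM in Control LPS. The 3 groups did not overlap. Cyp51, a demethylase of the sterol branch, was 3.48-fold higher (40.3, 34.5 and 36.2 against 126, 130 and 131 CPM) and at 15.1 ± 1.69 CPM in Control LPS. Dhcr7, the last enzyme of the pathway, was 4.21-fold lower and broke with the rest. Srebf2, whose protein switches these genes on, rose only 1.37-fold.

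**Figure D3:**
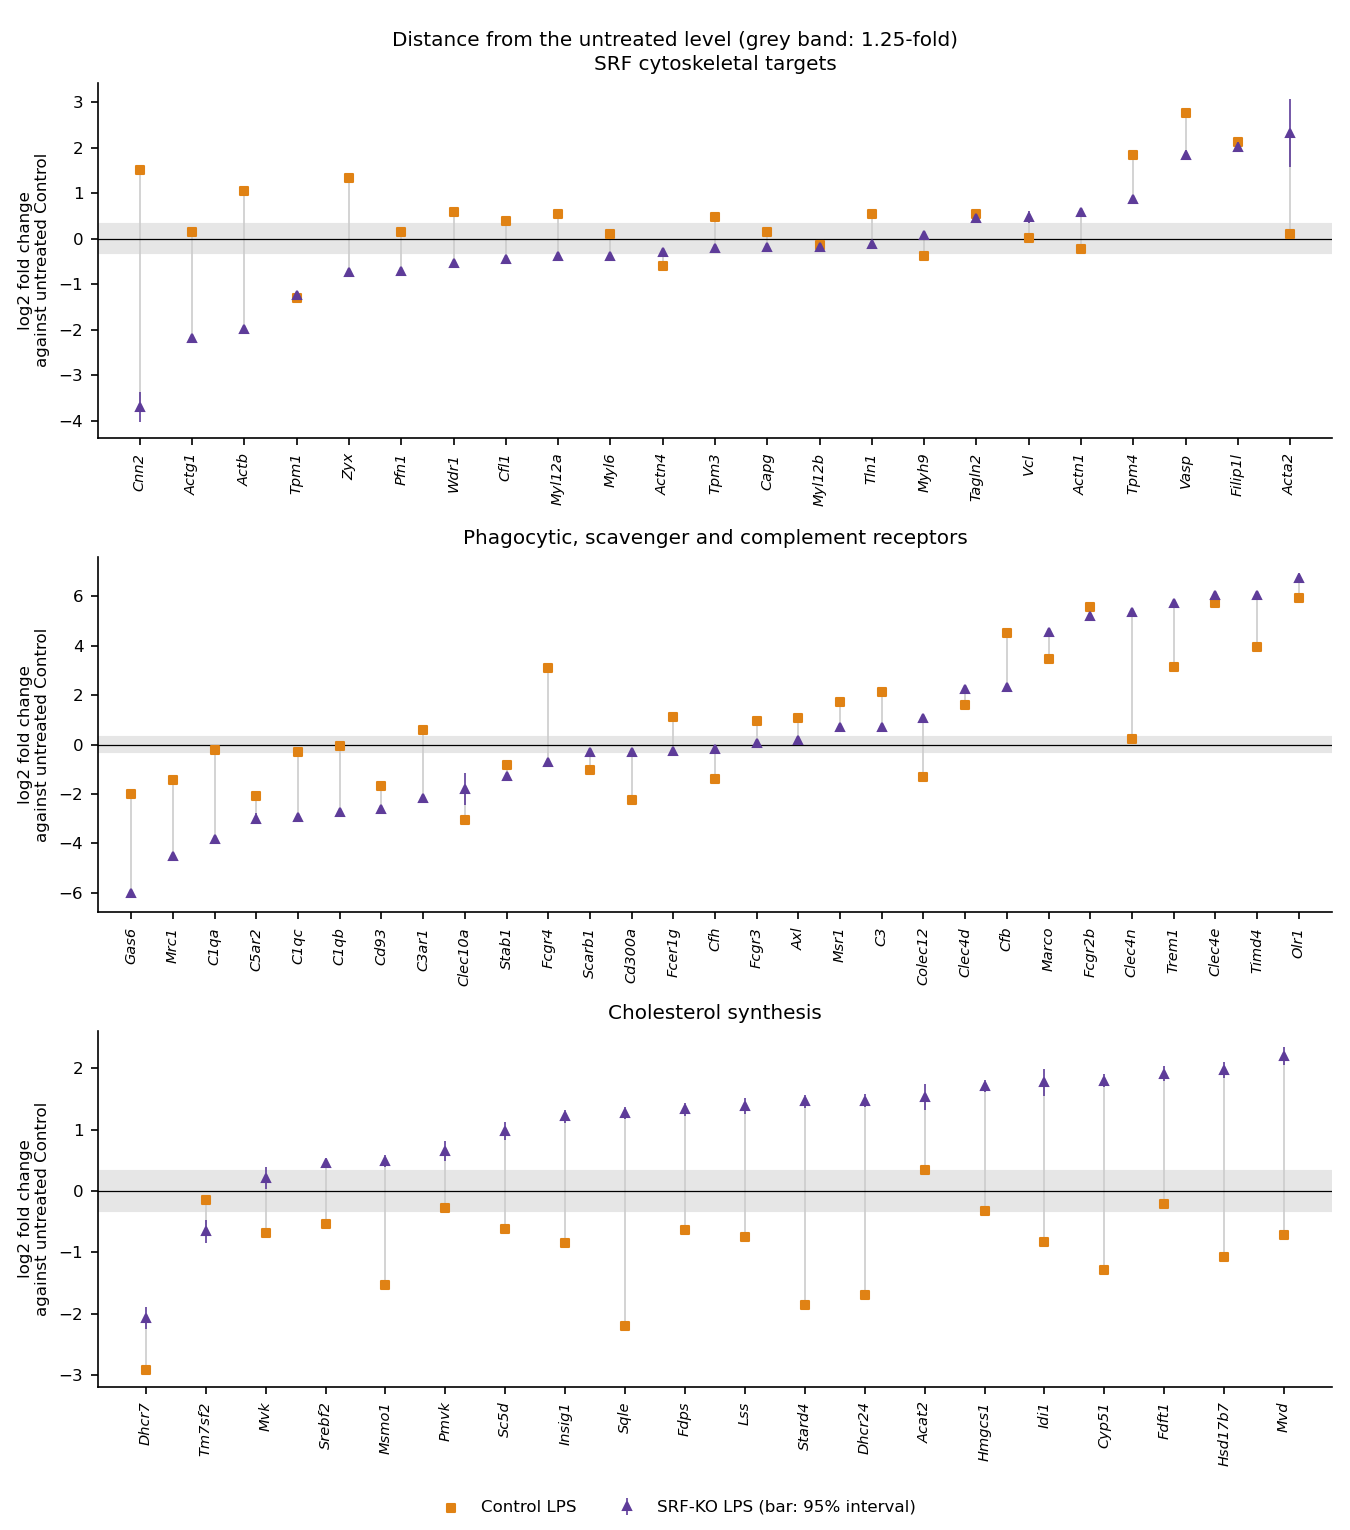
Log2 fold change against untreated Control (vertical axis) of the reported members of 3 lists, ordered by SRF-KO LPS. Purple triangles are SRF-KO LPS with 95% intervals as bars, orange squares are Control LPS, grey lines join the pair and the grey band is 0.32 to either side of 0. Timd4, with no untreated read, is drawn at its lower bound without a bar. Cnn2, Actg1 and Actb stand lowest among SRF cytoskeletal targets, and the cholesterol synthesis genes drawn, apart from Dhcr7 and Tm7sf2, lie above the untreated level in SRF-KO LPS.

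Interferon-stimulated genes as a list stood near the untreated level, although the cells had received LPS. Of 45 genes 18 lay at it (21% of all genes did), 21 were higher, 16 lower and 4 far above. Scaled by library totals alone, 9 lay at it, 19 were higher and 24 lower. The median log2 fold change was 0.01 in SRF-KO LPS (-0.18 with library totals alone) and 2.33 in Control LPS. Samhd1, an antiviral nucleotidase, had 506, 484 and 501 CPM untreated and 514, 511 and 472 CPM in SRF-KO LPS. The groups overlapped (log2 0.01 ± 0.04 SE, and -0.19 with library totals alone), and Control LPS held 2581 ± 13.4 CPM. Isg20, an antiviral exonuclease, had 28.6, 35.2 and 34.7 CPM untreated and 32.1, 31.8 and 32.0 CPM in SRF-KO LPS, against 409 ± 14.2 CPM in Control LPS. Ifitm3, which blocks virus entry, also overlapped, at 740, 878 and 759 CPM and 769, 818 and 776 CPM. Ifi44 was 1.13-fold lower. It passed the test but stayed inside the band set for the untreated level, and it did not pass when SRF-KO LPS replicate 3 was left out.

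Above the level stood the guanylate-binding proteins and some antiviral effectors. Gbp5 rose 32.2-fold (11, 9.86 and 9.55 to 325, 333 and 323 CPM) and Gbp2 8.95-fold, beside 1644 ± 9.40 and 2478 ± 30.8 CPM in Control LPS. Rsad2 (viperin) was 2.21-fold higher and Isg15, a ubiquitin-like modifier, rose by 1.13 ± 0.04 (SE) on the log2 scale, to 424, 393 and 409 CPM from 181, 181 and 199 CPM. Below the level stood 8 genes that were above it in Control LPS (14 with library totals alone). Irf7, the transcription factor that amplifies interferon production, had 955, 978 and 1040 CPM untreated, 351, 327 and 317 CPM in SRF-KO LPS and 2980 ± 118 CPM in Control LPS. The groups were fully apart and the fall was 2.98-fold (log2 -1.58 ± 0.04 SE, adjusted p = 9.38e-29). Bst2 (tetherin) was 2.69-fold lower, Ifit3 2.03-fold lower and Mx1 1.72-fold lower. Of 16 interferon receptor and signalling genes 11 were higher and 3 lower (5 with library totals alone). Irf5 and Irf8, transcription factors of myeloid cells, were above untreated in Control LPS and 1.78-fold and 1.53-fold below it in SRF-KO LPS, a pattern that neither kept with library totals alone. The feedback inhibitor gene Socs3 rose 80.1-fold and the kinase gene Jak2 13.3-fold.

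The promoters of 3 of these genes are printed because many interferon-stimulated genes carry a shared control element and these 3 moved in different directions. Each is the RefSeq window from 250 bases before to 50 after the gene's start on GRCm38.p6, written 5′ to 3′ on the gene's strand. Isg15 is chr4:156200769-156201068 (minus strand), Ifit3 chr19:34583279-34583578 (plus) and Bst2 chr8:71537423-71537722 (minus). Capitals mark the core of the interferon-stimulated response element, GAAA, any 2 bases and GAAA again, found on either strand. A match on the other strand shows as TTTC, 2 bases and TTTC, and overlapping matches run together.
Isg15: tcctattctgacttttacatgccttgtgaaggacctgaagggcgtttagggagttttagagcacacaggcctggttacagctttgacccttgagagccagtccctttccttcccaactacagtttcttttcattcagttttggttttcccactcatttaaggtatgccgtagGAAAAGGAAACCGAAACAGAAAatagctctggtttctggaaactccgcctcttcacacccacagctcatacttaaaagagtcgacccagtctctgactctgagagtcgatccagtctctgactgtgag
Ifit3: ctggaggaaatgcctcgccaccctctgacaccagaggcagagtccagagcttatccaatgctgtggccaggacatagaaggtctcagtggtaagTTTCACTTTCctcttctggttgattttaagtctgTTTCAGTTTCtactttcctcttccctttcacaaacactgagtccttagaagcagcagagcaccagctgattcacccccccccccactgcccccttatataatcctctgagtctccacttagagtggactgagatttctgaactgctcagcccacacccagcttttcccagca
Bst2: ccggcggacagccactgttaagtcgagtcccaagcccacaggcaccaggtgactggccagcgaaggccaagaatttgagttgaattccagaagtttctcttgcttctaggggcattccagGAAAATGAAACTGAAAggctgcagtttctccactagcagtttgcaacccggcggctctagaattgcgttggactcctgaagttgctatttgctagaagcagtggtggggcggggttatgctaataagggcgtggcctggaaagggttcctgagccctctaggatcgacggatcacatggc
Isg15 held 3 overlapping matches, Ifit3 and Bst2 2 each. The element was in 3.42% of all 11251 windows of tested genes and in 365 of the 8803 genes with a window (4.15%). Among interferon-stimulated genes 23 of 37 with a window held it (62.2%), among MHC class I genes 5 of 19 (26.3%) and among genes up in Control LPS but below untreated in SRF-KO LPS 37 of 286 (12.9%). Lists that moved otherwise held it too. It was in 5 of 23 ribosomal protein genes (21.7%), mostly at the untreated level, and in 4 of 20 matrix and proteolysis genes (20%), mostly higher. A match describes the letters and not the binding of a factor.

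**Figure D4:**
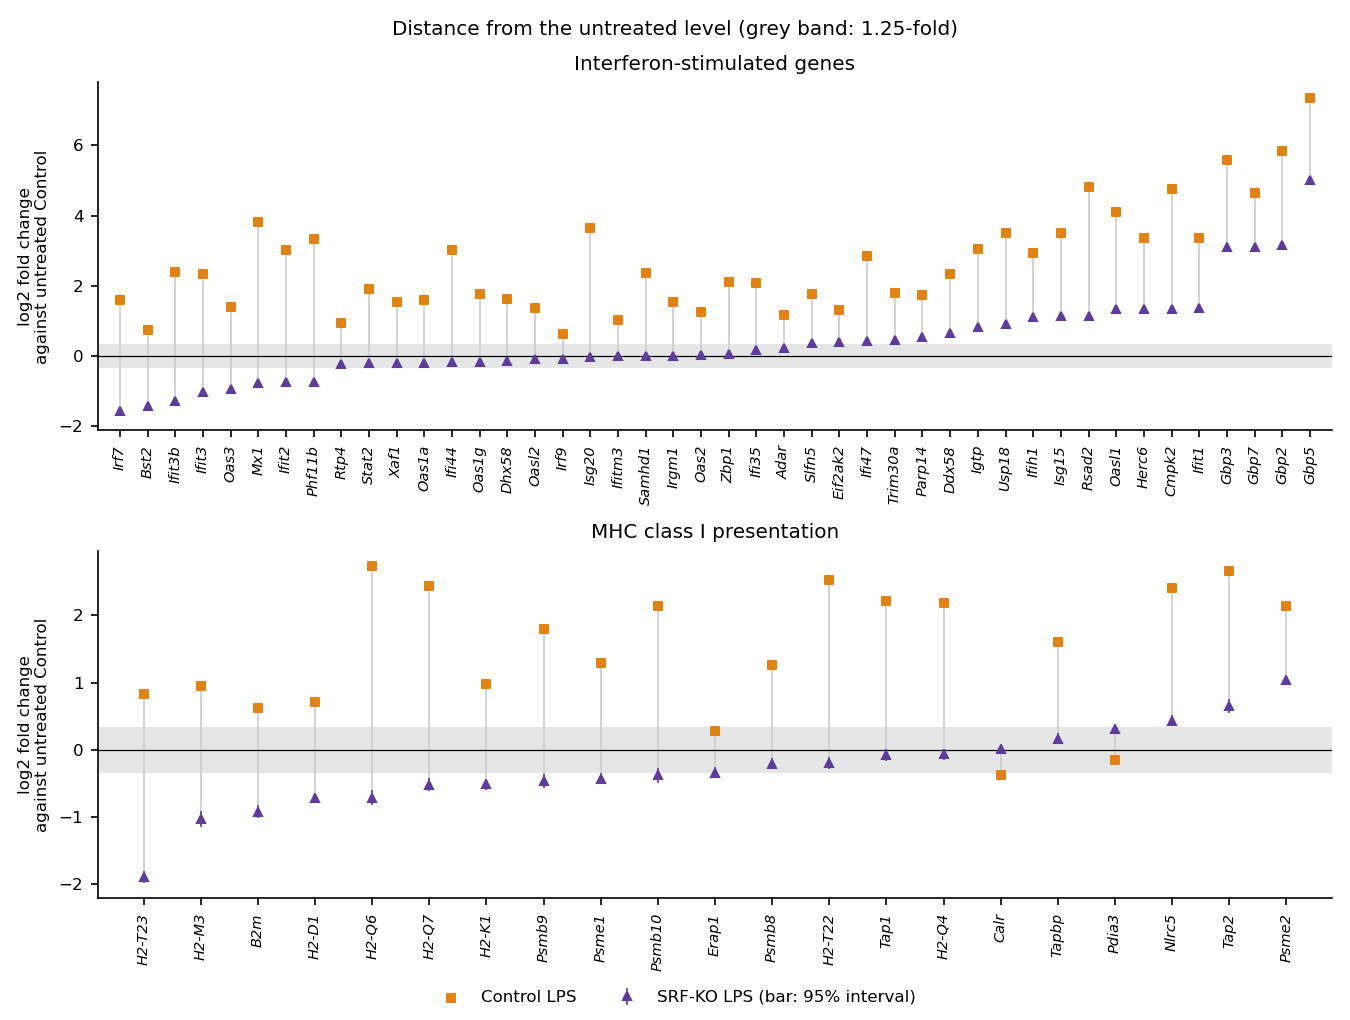
Log2 fold change against untreated Control (vertical axis) of the reported interferon-stimulated genes and of 21 genes of MHC class I presentation, ordered by SRF-KO LPS. Purple triangles are SRF-KO LPS with 95% intervals as bars, orange squares are Control LPS, and the grey band is 0.32 to either side of 0. All orange squares of the upper panel lie above 0, whereas many purple triangles lie in the grey band and those of Irf7 and Bst2 lie lowest.

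Presentation of antigen on MHC class I lay below the untreated level. Of 21 genes 13 were lower, 5 higher and 6 at the level, with a median of -0.34 against 1.61 in Control LPS. The number at the level was 3 with library totals alone. For 10 genes Control LPS was above untreated and SRF-KO LPS below, where 3.37% of all genes were. B2m, the light chain shared by all class I molecules, stood at 3482, 3608 and 3565 CPM untreated, at 1802, 1993 and 1844 CPM in SRF-KO LPS and at 5473 ± 409 CPM in Control LPS. H2-T23, a nonclassical class I gene, fell 3.69-fold, from 424, 443 and 466 CPM to 127, 118 and 116 CPM. The classical heavy chains H2-D1 and H2-K1 were 1.64-fold and 1.43-fold lower. Psme2, a subunit of the proteasome activator, was the main exception at 2.05-fold higher. Class I genes are alike in sequence, so reads could be split between them. MHC class II presentation was mixed, with 4 of 12 genes higher, 5 lower and 2 at the level. H2-Ab1 was 2.91-fold higher (55.0, 61.0 and 62.2 against 174, 167 and 178 CPM), and its activator Ciita 6.25-fold higher at low levels (1.35, 1.05 and 0.267 against 4.69, 6.04 and 6.41 CPM).

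The genes up in Control LPS and below untreated in SRF-KO LPS were ranked by the smaller of their fold changes against untreated, and Fgl2 came first. This gene of a fibrinogen-like protein (chr5:21372642-21378374) had 77.3, 74.7 and 77.7 CPM untreated and 7.93, 6.15 and 7.99 CPM in SRF-KO LPS, 10.5-fold lower, and 1189 ± 17.3 CPM in Control LPS. The next by the same ranking were Ifi208, Ccl12, Ifi213, Slfn1, Igsf9, Ifi206 and Ms4a6b. Ifi208, Ifi213 and Ifi206 belong to the PYHIN family of DNA sensors on chromosome 1 and fell 6.08-, 4.78- and 3.41-fold. Ifi213, for example, had 97.5, 98.9 and 97.5 CPM untreated, 20.4, 20.9 and 19.96 CPM in SRF-KO LPS and 521 ± 14.9 CPM in Control LPS. Ms4a6b fell 4.50-fold, Slfn1 3.94-fold and Igsf9 5.11-fold. The Ifi and Ms4a families hold near copies whose reads could be misassigned. Csf3r, the receptor of G-CSF, also had this pattern (2.75-fold lower, 246 ± 7.30 CPM in Control LPS).

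At the untreated level, the genes with the largest rise in Control LPS were Isg20, Slamf7, Ifi44, Ms4a4a and Tnip3. Slamf7, a receptor of immune cells, had 102, 100 and 93.5 CPM untreated, 107, 115 and 106 CPM in SRF-KO LPS and 995 ± 8.02 CPM in Control LPS (1.11-fold higher in SRF-KO LPS, and slightly below untreated with library totals alone). Among the genes at the untreated level with the largest falls in Control LPS were Ncaph, Lrp8, Foxm1 and Ccnf. Apart from the lipoprotein receptor gene Lrp8, these act in cell division. Foxm1, a transcription factor of mitotic genes, had 28.7, 30.3 and 29.999 CPM untreated, 33.3, 30.5 and 32.8 CPM in SRF-KO LPS and 3.13 ± 0.269 CPM in Control LPS.

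Genes of mitosis were on the other side almost as a block. Of 39 tested 37 were higher and 1 lower, with a median of 0.78 against -2.82 in Control LPS. For 34 of the 39, Control LPS was below untreated and SRF-KO LPS above, where 3.64% of all genes were. With library totals alone 34 were higher, 1 was lower and 28 were on the other side. None lay 4-fold above. Ube2c, which tags mitotic proteins for degradation, had 22.6, 21.8 and 19.4 CPM untreated, 67.0, 74.1 and 67.0 CPM in SRF-KO LPS (3.26-fold higher) and 6.03 ± 0.878 CPM in Control LPS. Mki67, the common proliferation marker, had 225, 205 and 200 CPM untreated, 490, 498 and 533 CPM in SRF-KO LPS and 44.3 ± 3.84 CPM in Control LPS. The 3 groups were apart for both. The spindle checkpoint kinase gene Bub1 was 3.05-fold higher, cyclin B1 (Ccnb1) 2.59-fold, the cytokinesis gene Prc1 2.22-fold and Top2a 1.83-fold.

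DNA replication genes did the opposite. Of 37 tested 35 were lower and 1 higher, 22 of them at least 2-fold lower and 4 far below, with a median of -1.19 in SRF-KO LPS and -2.81 in Control LPS. The number far below was 7 with library totals alone. Mcm6, a subunit of the replicative helicase, had 293, 282 and 287 CPM untreated, 46.3, 51.8 and 49.4 CPM in SRF-KO LPS and 84.6 ± 1.92 CPM in Control LPS. It was 5.84-fold lower (log2 -2.55 ± 0.04 SE, adjusted p = 1.06e-35). Pcna, the sliding clamp of the polymerase, fell 3.73-fold, from 441, 445 and 423 CPM to 116, 118 and 117 CPM, beside 129 ± 3.68 CPM in Control LPS. The licensing factor gene Cdt1 fell 4.41-fold and the maintenance methyltransferase gene Dnmt1 2.56-fold. Rrm1, a subunit of ribonucleotide reductase, lay at the untreated level (133, 130 and 124 against 114, 122 and 121 CPM), with 22.6 ± 1.36 CPM in Control LPS. Tyms, which makes thymidylate, was the 1 gene higher, 1.95-fold.

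**Figure D5:**
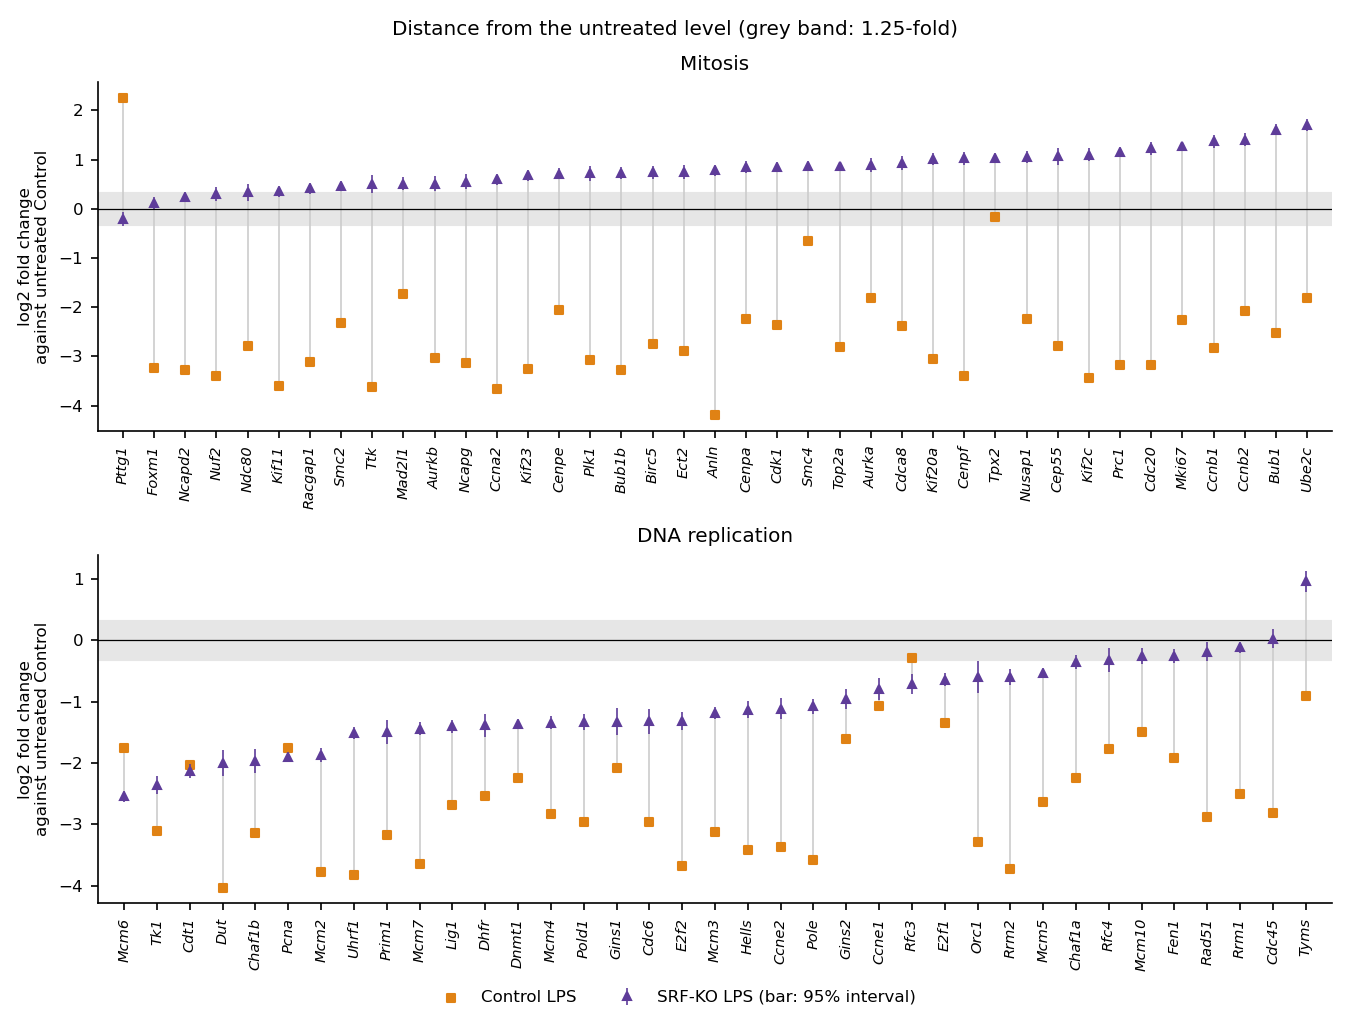
Log2 fold change against untreated Control (vertical axis) of 39 mitosis and 37 DNA replication genes, ordered by SRF-KO LPS. Purple triangles are SRF-KO LPS with 95% intervals as bars, orange squares are Control LPS, and the grey band is 0.32 to either side of 0. In the upper panel every triangle but that of Pttg1 is above 0 and most squares are below, while in the lower panel 35 of 37 triangles are below 0.

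Promoters of 2 mitosis genes are printed to show the CCAAT element that many cell cycle genes carry. Ccnb1 is chr13:100786437-100786736 (minus strand) and Bub1 chr2:127831810-127832109 (minus), as RefSeq windows of the same extent on GRCm38.p6, 5′ to 3′. Capitals mark CCAAT, or ATTGG where it lies on the other strand.
Ccnb1: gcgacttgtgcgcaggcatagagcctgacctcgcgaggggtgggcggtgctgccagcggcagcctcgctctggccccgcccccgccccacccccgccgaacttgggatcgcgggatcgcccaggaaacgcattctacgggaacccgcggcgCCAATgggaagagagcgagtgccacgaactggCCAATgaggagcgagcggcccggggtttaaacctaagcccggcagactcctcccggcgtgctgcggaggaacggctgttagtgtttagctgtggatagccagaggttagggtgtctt
Bub1: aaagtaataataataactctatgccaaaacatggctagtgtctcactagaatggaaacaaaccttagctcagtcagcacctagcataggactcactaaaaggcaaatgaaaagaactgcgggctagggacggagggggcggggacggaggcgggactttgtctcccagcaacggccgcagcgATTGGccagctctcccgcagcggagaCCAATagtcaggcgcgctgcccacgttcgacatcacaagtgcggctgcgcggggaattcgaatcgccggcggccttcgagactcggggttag
Each held 2 matches close to the start (-99 and -67 in Ccnb1, -68 and -42 in Bub1). This short motif is common, and 42.7% of genes with a window held it. The share was 72.7% in mitosis (24 of 33), 56.7% in DNA replication (17 of 30) and 93.3% in cholesterol synthesis (14 of 15). Among genes down in Control LPS but above untreated in SRF-KO LPS it was 58% (184 of 317), and among the reverse class 37.1% (106 of 286). The element was not particular to lists that rose. MHC class I presentation, mostly lower, held it in 73.7% (14 of 19), the mixed class II list in 77.8% (7 of 9) and chaperones in 82.6% (19 of 23).

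Outside the cell cycle, the genes farthest on this other side included Nt5e, Gsta3, Gpr155, Cd207, Slc36a2, Cd24a and Gfod1. Nt5e (CD73), an enzyme that makes adenosine outside the cell, had 6.22, 5.94 and 7.53 CPM untreated, 34.4, 34.9 and 37.8 CPM in SRF-KO LPS and 1.18 ± 0.102 CPM in Control LPS. Cd207, the lectin langerin, was 3.62-fold higher (21.0, 19.6 and 20.1 against 70.7, 72.6 and 76.8 CPM) and at 4.54 ± 0.338 CPM in Control LPS. Gfod1 was 26.2-fold higher, Gpr155 3.84-fold, the amino acid transporter gene Slc36a2 3.57-fold and Cd24a 3.47-fold.

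The known cytoskeletal targets of SRF did not fall together. Of 23 tested 15 were lower, 7 higher and 5 at the untreated level, 2 were far below and 2 far above, and the median was -0.20 (0.39 in Control LPS). For 6 of them Control LPS was above untreated and SRF-KO LPS below, where 3.37% of all genes were. With library totals alone this held for 3 of them, and 1 gene lay at the untreated level. Both cytoplasmic actins fell. Actb (chr5:142903115-142906754) had 5224, 5599 and 5761 CPM untreated, 1442, 1373 and 1398 CPM in SRF-KO LPS and 11387 ± 286 CPM in Control LPS, a 3.94-fold fall (log2 -1.98 ± 0.04 SE, adjusted p = 2.65e-32). Actg1 fell 4.56-fold, from 780, 859 and 832 CPM to 182, 174 and 187 CPM. Cnn2, the actin-binding protein calponin 2, fell 13-fold, from 10.9, 11.5 and 10.7 CPM to 1.13, 0.929 and 0.397 CPM. Zyx (zyxin, a focal adhesion protein) fell 1.67-fold and the actin-severing cofilin gene Cfl1 1.36-fold. In contrast Vasp, which promotes actin filament growth, was 3.59-fold higher (161, 191 and 190 against 658, 642 and 645 CPM), Filip1l 4.05-fold higher and the focal adhesion gene Vcl 1.39-fold higher. Tln1 (talin) and Myh9 (nonmuscle myosin) lay at the untreated level, the latter with overlapping groups and a log2 difference of 0.08 (-0.11 with library totals alone).

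The promoters of 3 targets that moved in different directions are printed for their CArG box, the element SRF binds. Actg1 is chr11:120348446-120348745 (minus strand), Cnn2 chr10:79988350-79988649 (plus) and Vcl chr14:20929148-20929447 (plus), again as RefSeq windows on GRCm38.p6, 5′ to 3′, with the box in capitals.
Actg1: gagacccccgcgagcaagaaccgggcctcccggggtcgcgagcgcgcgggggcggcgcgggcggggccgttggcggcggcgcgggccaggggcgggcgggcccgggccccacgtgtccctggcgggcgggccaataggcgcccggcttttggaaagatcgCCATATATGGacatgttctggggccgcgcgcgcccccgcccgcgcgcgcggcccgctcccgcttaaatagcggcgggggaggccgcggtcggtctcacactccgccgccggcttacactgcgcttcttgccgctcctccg
Cnn2: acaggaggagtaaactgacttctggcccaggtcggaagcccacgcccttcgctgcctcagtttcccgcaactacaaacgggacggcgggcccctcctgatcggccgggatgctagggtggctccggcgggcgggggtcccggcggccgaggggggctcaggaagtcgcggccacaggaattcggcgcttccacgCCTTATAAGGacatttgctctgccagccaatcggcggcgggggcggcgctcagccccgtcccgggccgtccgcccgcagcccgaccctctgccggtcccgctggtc
Vcl: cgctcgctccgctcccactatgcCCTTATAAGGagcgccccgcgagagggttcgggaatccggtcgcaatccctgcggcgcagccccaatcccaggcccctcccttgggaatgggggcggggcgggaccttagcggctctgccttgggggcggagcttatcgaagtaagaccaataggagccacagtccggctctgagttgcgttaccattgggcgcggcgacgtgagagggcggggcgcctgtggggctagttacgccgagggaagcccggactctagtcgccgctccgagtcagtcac
The box lay at -90 in Actg1, at -56 in Cnn2 and at -227 in Vcl, counted from the gene's start, so the same 10 letters stood in front of Cnn2, which fell, and Vcl, which rose. A CArG box was found in 127 of 8803 genes with a window (1.44%). It was in 5 of 22 SRF cytoskeletal targets (22.7%) and in 4 of 30 genes of the immediate-early list described below (13.3%). Of genes far below untreated 13 of 379 held it (3.43%), and of those far above 13 of 563 (2.31%).

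Other actin regulators and adhesion genes also moved both ways. Of 45 actin regulators 19 were higher, 23 lower and 7 at the level (median -0.21). Of all genes tested 39.5% were higher, 40.1% lower and 21% at the level, so this list was not far from them. Cotl1 (coactosin-like, an actin filament binder) fell 5.90-fold, from 686, 736 and 761 CPM to 130, 116 and 124 CPM, and Dock2, an activator of Rac in leukocyte migration, 4.83-fold. Fscn1 (fascin, a filament bundler) rose 21.9-fold, from 0.338, 0.622 and 0.694 CPM to 12, 11.8 and 12.3 CPM, but reached 127 ± 5.07 CPM in Control LPS. Rhoq, a small GTPase gene, rose 5.97-fold and the platelet protein gene Plek (pleckstrin) 4.76-fold. Among 29 integrins and adhesion genes 17 were higher and 10 lower (median 0.27). Itgal and Itgb2, the chains of LFA-1, were 8.05-fold and 1.89-fold higher, the kinase gene Src 11.8-fold and the fibronectin receptor chain gene Itga5 2.93-fold. The laminin receptor chain gene Itga6 was 8.41-fold lower, and also low in Control LPS (42.2 ± 1.01 CPM).

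The list of immediate-early genes, the other class tied to SRF, lay mainly above untreated. It also held Srf and genes of its partner factors (Mrtfa, Mrtfb, Elk3 and Elk4), so its counts are not of immediate-early genes alone. Of 36 tested, 27 were higher and 8 lower, Srf among the latter, with 10 far above and a median of 0.79 (0.37 in Control LPS). With library totals alone 22 were higher and 9 lower. The nuclear receptor gene Nr4a3 rose 214-fold (0.048, 0.239 and 0.053 to 21.9, 25.6 and 26.9 CPM), Ier3 43.9-fold and the AP-1 gene Fosl2 7.08-fold. Egr2 rose 9.65-fold (2.75, 2.63 and 3.36 to 31.4, 25.8 and 26.8 CPM), where Control LPS stood below untreated at 1.40 ± 0.205 CPM.

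Genes that mark macrophages moved both ways, more of them down. Of 29 macrophage identity genes 18 were lower and 11 higher, with 8 far below and 4 far above (median -0.64, -0.02 in Control LPS). Aif1 (IBA1, an actin-bundling protein of macrophages) fell 16.9-fold, from 184, 196 and 185 CPM to 10.6, 11.8 and 10.9 CPM, with 186 ± 2.80 CPM in Control LPS. The high-affinity IgG receptor gene Fcgr1 fell 8.11-fold to 87.4, 86.9 and 78.4 CPM from 672, 695 and 686 CPM, while Control LPS held 1853 ± 19.99 CPM. Mertk, a receptor for dying cells, fell 10.8-fold and the protease gene Lgmn 8.03-fold. Yet Adgre1 (F4/80) fell only 1.29-fold and Cd68 3.64-fold, while Lyz2 rose 1.49-fold and Itgam 1.21-fold. Among those far above, Csf2rb, a receptor chain for myeloid growth factors, rose 7.84-fold (176, 182 and 198 to 1465, 1420 and 1474 CPM) and the transcription factor gene Cebpb 14.3-fold.

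Phagocytic, scavenger and complement receptors were drawn apart, with 9 of 29 far above and 8 far below (13 higher, 15 lower). The C1q chains, which opsonise debris, fell together. C1qb had 2706, 2794 and 3001 CPM untreated, 439, 404 and 432 CPM in SRF-KO LPS and 2692 ± 63.7 CPM in Control LPS, and the falls were 6.67-fold for C1qb, 7.74-fold for C1qc and 14.3-fold for C1qa. The 3 genes lie side by side on chromosome 4, between 136880129 and 136898803. Gas6, the bridge between dying cells and Mertk, fell 64.1-fold, from 218, 237 and 236 CPM to 3.51, 3.68 and 3.57 CPM, beside 57.1 ± 1.29 CPM in Control LPS. The mannose receptor gene Mrc1 fell 22.8-fold. In the other direction the fungal lectin receptor gene Clec4e rose 66.3-fold (47.9, 49.7 and 45.1 to 3100, 3311 and 3067 CPM) and Trem1, an amplifier of inflammation, 53.5-fold.

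Lipid handling was mostly below the untreated level: 18 of 30 genes were lower and 11 higher, with 5 far below (9 with library totals alone) and 3 far above (median -0.53). Apoe (chr7:19696109-19699188), the lipoprotein through which macrophages export cholesterol, had 3165, 3361 and 3484 CPM untreated and 85.8, 89.0 and 95.1 CPM in SRF-KO LPS. That is a 37.1-fold fall (log2 -5.21 ± 0.05 SE, adjusted p = 7.48e-44). With TMM, Control LPS, at 3390 ± 25.7 CPM, did not pass against untreated, a comparison that rests on the scaling. The phospholipid transfer protein gene Pltp fell 14.9-fold, the fatty acid carrier gene Fabp5 9.29-fold and the lipase gene Lpl 2.77-fold. Pparg, a nuclear receptor of lipid metabolism, fell 31.8-fold, from 44.6, 43.7 and 42.7 CPM to 1.35, 1.32 and 1.47 CPM, with 5.04 ± 0.171 CPM in Control LPS. Acsl1, which activates fatty acids, rose 11-fold. Among 35 lysosome genes 26 were lower and 7 higher (median -0.54, -0.10 in Control LPS). The protease genes Ctsb and Ctsd were 3.00-fold and 1.55-fold lower and Psap, the precursor of the saposins, 2.82-fold lower. Ctsk, the collagen-degrading cathepsin of osteoclasts, was 13.4-fold higher (1.93, 1.58 and 2.03 against 23.6, 26.4 and 24.0 CPM).

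The largest falls, among genes whose mean CPM over the 6 libraries had a log2 of 3 or more, ended at low levels. A high untreated level was enough to meet that minimum. Slco2b1, an organic anion transporter gene, had 38.4, 36.9 and 43 CPM untreated and only 3 reads over the SRF-KO LPS libraries, a ratio of 860 with a 95% counting interval of 294 to 4175. Rasgrp3, an activator of Ras, fell 159-fold and Nanos1, an RNA-binding protein gene, 142-fold. Eps8, an actin-capping protein gene, fell 79.8-fold, Pcp4l1 78.1-fold, Kitl (stem cell factor) 77.9-fold and Rnf150 73.0-fold. Nanos1, with 47.6, 48.0 and 40.3 CPM untreated and 0.270, 0.310 and 0.397 CPM in SRF-KO LPS, was also low in Control LPS (0.360 ± 0.140 CPM). Pcp4l1 was not, at 0.901, 1.04 and 1.19 CPM in SRF-KO LPS and 13.3 ± 0.508 CPM in Control LPS.

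Ribosomal protein genes mostly stayed at the untreated level, while other genes of basic cell work moved more. Of 31 ribosomal protein genes 28 lay at it, none was 2-fold away, 12 were higher and 6 lower (with library totals alone 2 and 22). Rplp0 had 827, 899 and 858 CPM untreated and 916, 903 and 917 CPM in SRF-KO LPS, a log2 difference of 0.08 (-0.11 with library totals alone). Among 34 genes of the proteasome, splicing and general transcription 18 lay at the level, 24 were higher and 2 lower (10 lower with library totals alone). Ppia overlapped, with 617, 604 and 588 CPM against 604, 593 and 611 CPM. Ribosome biogenesis was lower for 23 of 33 genes and higher for 6, or 2 with library totals alone (median -0.32, -0.92 in Control LPS), led by the nucleolar gene Nop56 at 2.11-fold lower. Chaperones of the endoplasmic reticulum and of heat shock were higher for 25 of 30 genes and lower for 2, or 5 with library totals alone (median 0.80, -0.01 in Control LPS). Hspa5 (BiP) rose 2.11-fold, Hsp90b1 2.14-fold and Herpud1, a degradation factor of that compartment, 4.19-fold, from 21.4, 18.9 and 19.5 CPM to 86.3, 82.1 and 82.7 CPM.

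The remaining lists were mixed, beside 39.5% higher, 40.1% lower and 21% at the level among all genes tested. ATF4 and amino acid genes had 13 of 28 higher, 10 lower and 7 at the level, led by the arginine transporter gene Slc7a2 (86.2-fold higher) and the mTORC1 inhibitor gene Ddit4 (16.5-fold higher). Iron and heme genes had 12 of 19 higher and 4 lower. The siderophore binder gene Lcn2 rose 56.9-fold and haptoglobin (Hp) 57.2-fold, while the ferrireductase gene Steap3 fell 10.2-fold. Survival and cell death genes had 15 of 28 higher and 11 lower (12 and 13 with library totals alone). The death receptor gene Fas rose 25.9-fold and Bcl2a1d, an anti-apoptotic gene with near copies, 65.2-fold. Alternative activation genes had 8 of 13 higher and 3 lower.

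Markers of other cells that marrow cultures could hold moved too, and their part in the values above was not tested. Summed over 14 neutrophil markers the level was 55.5 to 58.8 CPM untreated and 105 to 118 CPM in SRF-KO LPS (250 to 263 CPM in Control LPS). The rise was carried by Mmp8, at a mean of 72.8 CPM in SRF-KO LPS. Of the 5 tested 3 were higher, Mmp8 (12.1-fold) and Camp (at least 51.2-fold) among them. The other two were lower: Csf3r, most of the untreated sum, 2.75-fold and S100a9 2.09-fold, a call lost without untreated replicate 1 or SRF-KO LPS replicate 1. Elane, Mpo, Ly6g, Prtn3 and Ctsg were at 0 in SRF-KO LPS. The 11 osteoclast markers summed to 335 to 338 CPM untreated and 362 to 366 CPM in SRF-KO LPS, with 8 of 10 tested higher. That near-flat sum holds opposite moves: Tnfrsf11a (RANK), most of the untreated sum, fell 5.32-fold (235, 239 and 234 to 44.3, 45.7 and 42.6 CPM), while Acp5 rose 8.51-fold and 7 markers lay far above. The 10 B cell markers summed to 135 to 148 and 145 to 147 CPM, nearly all of it Blnk. The 12 T and NK cell markers summed to 3.63 to 5.94 and 0.851 to 1.13 CPM, with Cd3e, Cd3d and Cd3g at 0 in SRF-KO LPS. The 12 erythroid and megakaryocyte markers, almost wholly Pf4, summed to 118 to 132 and 95.4 to 98.1 CPM, with Hbb-bs and Hbb-bt at 0 in both groups. The 9 mast cell and basophil markers went from 1.5 to 2.08 CPM to 117 to 128 CPM through Hdc, the histamine-making enzyme, while Cpa3, Fcer1a and Ms4a2 were at 0 in SRF-KO LPS. The 12 stromal and endothelial markers summed to 18.2 to 21.3 and 36.7 to 40.0 CPM with Col1a1 and Col3a1 at 0 in both. Pdgfrb rose from a mean of 0.132 CPM untreated to 27.4 CPM in SRF-KO LPS, while Kdr fell from 18.2 to 8.13 CPM. The 12 dendritic cell markers summed to 595 to 634 and 550 to 586 CPM. That sum too holds opposite moves: Bst2 fell from a mean of 610 to 227 CPM, while Ccl22 rose from 1.6 to 329 CPM.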

How the data were processed

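The data are stranded TruSeq RNA-seq libraries of 9 macrophage samples, 3 per group. The deposited files hold raw read counts per gene, which the authors made, per the submitters' processing notes, with Trimmomatic, STAR 2.5.4b and featureCounts on GRCm38, after bcl2fastq 2.19. The strand setting of counting and the annotation release are not stated in these sources, so overlapping and antisense genes, and near-identical families (Gbp, H2, Ifi, Ccl, Ms4a, Ifit, Bcl2a1), are uncertain. Of 22524 genes, 22291 could be placed on GRCm38 and 21083 are autosomal.

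Counts were scaled by TMM (factors 1.18 to 1.19 untreated, 0.810 to 0.814 Control LPS, 1.04 SRF-KO LPS), and 11560 genes passed edgeR's filterByExpr on the 3 groups. A quasi-likelihood model with group as its only term was fitted on all 9 libraries, so that the groups share 1 estimate of spread (R 4.3.3, edgeR 4.0.16, limma 3.58.1), and p-values were adjusted by the Benjamini-Hochberg method over all genes tested. Fold changes are SRF-KO LPS over untreated, SE is the log2 fold change over the root of F, and intervals are 95%. With 0 reads in a group the fold is a bound against 3 reads, and with 1 to 3 reads an exact counting interval is given, which covers counting error only. That held for 47 genes with no untreated read and 8 with none in SRF-KO LPS. The fitting code was tested on simulated data. DESeq2 1.42.0, library totals, other filters and left-out libraries were tried as alternatives.

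Gene lists (34 functional and 8 of other cells' markers, 1108 entries, 981 tested) and the comparison itself were chosen with earlier results of these data known. Named genes are Srf, 8 rises and 8 falls ranked by fitted change, and for each list the 4 members with the smallest p and the 4 with the highest level. Also named are 8 genes in each direction on the other side. At the untreated level, 5 rising and 5 falling in Control LPS are named. Genes without a read in a group ranked first among rises or falls, in order of symbol. Outside lists the log2 of the mean CPM over the 6 libraries had to be at least 3, which a single group can reach alone. Adgre1, Ifnb1, Inhba, Ccl7, Ccl8, Tlr9, P2ry12, Serpinb2, Nqo1, Sqle, Dhcr7, Cnn2, Isg15, Ifit3, Mx1, Ccnb1, Tyms, Zyx, Vcl, Fscn1, Mertk, Cd68, C1qa, Mrc1, Pparg, Csf2rb, Cebpb, Irf5, Irf8 and S100a9 were added after their values were seen. A few genes that the rule names are not reported here. Promoter windows are RefSeq's on GRCm38.p6, matched by symbol for 8803 of the 11144 autosomal genes tested.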

Additional observations from a re-analysis of the deposited data

How the results depend on the processing

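With library totals alone, 245 genes were above untreated in Control LPS and below it in SRF-KO LPS, and 611 the reverse. A 1.5-fold margin put 4898 genes at the untreated level, and a 2-fold minimum left 72 and 86 genes on the other side. Leaving out each library in turn gave 4259 to 4446 genes higher, 4333 to 4501 lower, 766 to 793 far above, 498 to 516 far below and 2137 to 2349 at the level, with 361 to 378 and 391 to 410 on the other side. These fits have fewer samples. List medians near 0 changed sign with library totals alone for interferon-stimulated genes (-0.18), ATF4 and amino acid genes (-0.10), ribosomal proteins (-0.17) and survival genes (-0.021). They also did so for interferon-stimulated genes (-0.0113 to 0.0575), ribosomal proteins (-0.011 to 0.0493) and oxidative phosphorylation (-0.0167 to 0.0131) over the fits without 1 library, and for oxidative phosphorylation with DESeq2's size factors in edgeR (0.0001). With library totals alone the log2 differences of Samhd1 (-0.19), Ncaph (-0.011), Ccnf (-0.032), Slamf7 (-0.0439), Ms4a4a (-0.17), Myh9 (-0.11) and Rplp0 (-0.11) turned negative. Tnip3 (-0.21), Ifitm3 (-0.20), Isg20 (-0.23), Lrp8 (-0.30) and Ppia (-0.19), which did not pass with TMM, then passed as lower. Of the 193 genes named with values, 193 kept their direction and call with DESeq2's size factors in edgeR and 191 with DESeq2 itself, and 181 did with library totals. Over all fits without 1 library, 1716 gene results kept both, 16 lost the call and 5 gained it. In all these counts a change of sign mattered only where the gene passed in either fit. Genes near 0 that passed in neither could switch sign and still count as kept. Whether replicate numbers in the titles pair the libraries could not be told. Deviations of same-numbered libraries correlated between -0.0746 and 0.0971 and those of differently numbered ones between -0.110 and 0.111. With 3 libraries per group, such small values cannot exclude a pairing. With the replicate number as a block, 4421 genes were higher, 4487 lower, 751 far above, 495 far below and 2378 at the level, with 371 and 408 on the other side, and Myh9 passed (log2 0.08, adjusted p = 0.0323). Depth limits genes with few reads, such as Ifnb1, Ereg in Control LPS and Ccl8 in SRF-KO LPS.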
